A study of Mus musculus with 18 samples.

Results

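Control-shRNA tumors of the K7M2 line were compared between 2 hosts, 4 tumors grown in Balb/c mice against 5 grown in NSG mice, out of 18 tumors in all. K7M2 is a mouse osteosarcoma cell line that arose in the Balb/c strain, so that Balb/c mice are hosts of the same genetic background with an intact immune system. NSG mice are of the NOD strain and carry the scid allele of *Prkdc*, which blocks the joining of antigen receptor genes, and a null allele of *Il2rg*, the shared gamma chain of several cytokine receptors. They have no mature T, B, or NK cells, whereas macrophages, neutrophils, and other myeloid cells are kept. Balb/cJ and NSG (NOD.Cg-Prkdcscid Il2rgtm1Wjl/SzJ) mice are both described as female, between 6 and 8 weeks old, and each received 500000 cells. The cells carried a non-targeting control shRNA (ATRXCT in the study), and each tumor came from its own mouse, numbered 41, 43, 44, and 45 for Balb/c and 1 to 5 for NSG. The other 9 tumors carried an shRNA against *Atrx* (ATRXKD) and are used only to set the same host difference beside this one. All tumors come from 1 cell line, and whole cages were assigned to a group, so that strain, immune status, and cage cannot be told apart between the groups.

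The values are FPKM, fragments scaled to transcript length and to the mapped fragments of the library, and differences are Balb/c minus NSG on the log2 (FPKM + 1) scale, which understates changes of genes with low values. Of 20878 genes, 14348 had a mean of at least 0.1 FPKM over the 9 tumors and do not lie on chromosome X or Y. A gene was called when its adjusted p in limma was under 0.05 and its difference was at least 1 on the log2 scale, that is 2-fold. In bulk tumors, fewer cells of a type and less RNA per cell cannot be told apart.

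Cytotoxic T cells and NK cells kill by releasing perforin, which opens the target membrane, and granzymes, serine proteases that enter through it. Both cell types also secrete interferon-gamma, which induces antigen presentation and chemokine genes in neighboring cells. Macrophages, which NSG mice keep, are abundant in sarcomas.

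The labels were first checked with genes outside the fit. *Il2rg*, on chromosome X, was at 35.1, 36.8, 27.7 and 22.8 FPKM in the Balb/c tumors and at 6.23, 10.6, 9.25, 7.01 and 14.5 FPKM in the NSG tumors, with no overlap (log2 difference 1.62; exact permutation test, two-sided, p = 0.0159, the smallest p that 4 against 5 tumors allow). Messages of K7M2 cells and of remaining host cells cannot be told apart in that value, and 41.1% of the 75 nt windows of *Il2rg* transcripts also occur in another annotated gene. The Y-linked genes *Eif2s3y*, *Ddx3y*, and *Kdm5d* were at 0 in every Balb/c tumor, whereas *Eif2s3y* was at 10.9 to 14.4 FPKM in the NSG tumors, although the methods describe female mice for both hosts. Sex therefore also cannot be told apart from the host. *Prkdc* was not called (log2 difference 0.38, standard error 0.20, adjusted p = 0.313 in limma), and *Hc*, the complement C5 gene, was below the filter. Osteoblast and osteosarcoma identity genes were mixed: *Runx2* was at 6.86 and 5.44 FPKM on average, *Spp1* at 315 and 328, and *Col1a1* at 206 and 95.3 (Balb/c and NSG), while *Sp7*, *Dlx5*, *Ibsp*, and *Dmp1* were below the filter. Grafted and host cells cannot be told apart in these values, so they do not identify the grafted cells. Estimated depth was between 15000000 and 24350000 fragments per tumor. The Balb/c tumor of mouse 45 stood apart for keratinocyte genes, with a mean log2 (FPKM + 1) of 2.47 over 18 genes against 0.46 to 0.49 in the other Balb/c tumors, and counts without it are given below.

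In total, 203 genes were called (1.41% of those tested), 128 higher (0.892%) and 75 lower (0.523%) in Balb/c than in NSG tumors. With no fold limit 455 genes had an adjusted p under 0.05 (3.17%), at an unadjusted p under 0.05 there were 2768 genes (19.3%), and the values of both hosts did not overlap for 1091 genes (7.6%), of which 688 were higher (4.8%) and 403 lower (2.81%) in Balb/c tumors. The median difference over all genes was 0.01. These shares over all genes are the background for the list counts below. The 8 genes with the largest positive differences were 7 granzymes and the globin gene *Hba-a2*. The count of lower genes depended on single tumors: it was 45 without mouse 43, 114 without mouse 44, and 48 without NSG mouse 4. The count of higher genes ranged from 108 to 170 when each tumor was left out in turn, and without mouse 45 the counts were 120 higher and 54 lower. Of the 203 called genes, 71 lost the call with at least 1 tumor left out.

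**Figure D1:**
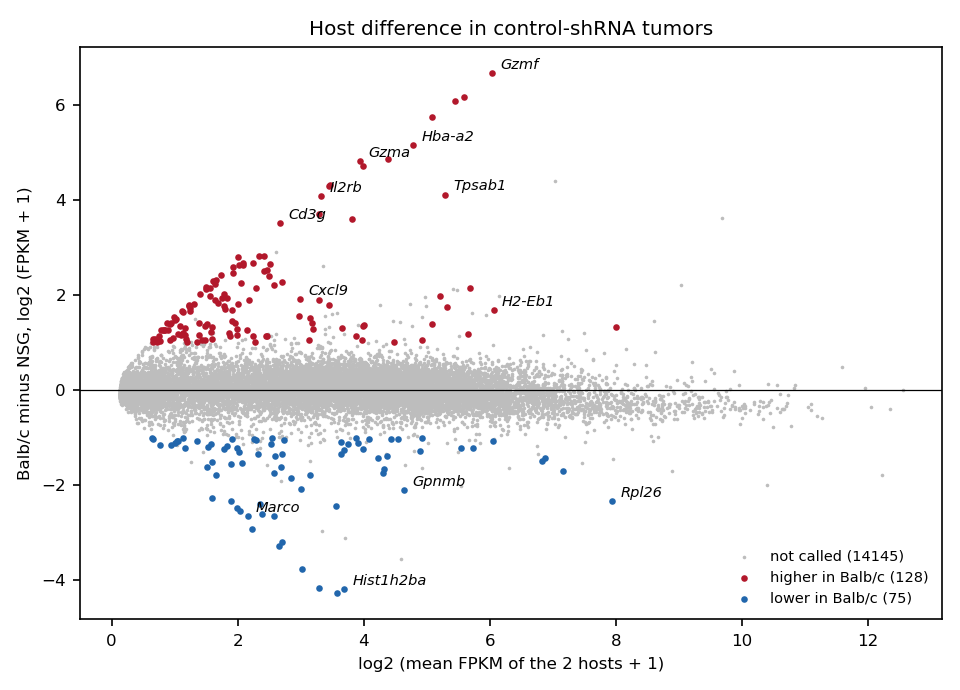
Each point is 1 of the 14348 genes, with the log2 of its mean FPKM over both hosts (plus 1) on the x axis and the Balb/c minus NSG difference in log2 (FPKM + 1) on the y axis. Red points are the 128 genes called higher and blue points the 75 called lower in Balb/c tumors, and the upper edge of the plot is held by granzymes such as *Gzmf* (6.68).

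Granzymes showed the largest host differences. Of the 9 granzyme genes tested, 7 were called higher in Balb/c tumors and 0 lower, with a median difference of 4.88 (this family was put together after its values were seen). *Gzmb* and *Gzmc* to *Gzmg* lie on the minus strand within 145 kb (chr14:56117619-56262260, mm10), and *Gzma* lies on the minus strand of chromosome 13 (chr13:113093827-113100981). For 3 genes of the cluster, the 250 bases before the RefSeq start sites (GRCm38.p6, minus strand) are shown. The Runx core (TGTGGT, or its reverse complement ACCACA) is in capitals. Runx proteins are transcription factors of T and NK cells, and a part of this motif in the host difference was not tested. *Gzmb* was not among the windows searched.
Gzmc, chr14:56234658-56234907: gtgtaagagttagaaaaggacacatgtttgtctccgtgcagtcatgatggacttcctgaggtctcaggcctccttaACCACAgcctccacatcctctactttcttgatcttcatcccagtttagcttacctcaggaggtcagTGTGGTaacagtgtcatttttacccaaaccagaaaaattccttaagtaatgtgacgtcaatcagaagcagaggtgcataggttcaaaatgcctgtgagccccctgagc
Gzmd, chr14:56132594-56132843: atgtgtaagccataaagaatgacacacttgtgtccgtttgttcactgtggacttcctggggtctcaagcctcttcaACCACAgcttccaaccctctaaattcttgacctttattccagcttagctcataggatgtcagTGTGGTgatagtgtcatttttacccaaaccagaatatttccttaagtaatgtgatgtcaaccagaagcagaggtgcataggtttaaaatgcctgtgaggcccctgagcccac
Gzmf, chr14:56211408-56211657: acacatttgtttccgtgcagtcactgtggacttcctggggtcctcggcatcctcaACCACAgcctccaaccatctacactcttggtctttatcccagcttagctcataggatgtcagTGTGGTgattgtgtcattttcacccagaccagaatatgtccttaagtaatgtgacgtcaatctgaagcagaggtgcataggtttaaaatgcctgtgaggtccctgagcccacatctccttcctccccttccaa

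The windows of *Gzmc*, *Gzmd*, *Gzme*, *Gzmf*, and *Gzmg* each held 2 Runx cores, one on each strand, which began 174 and 108 bases before the start in *Gzmc* and 195 and 133 bases before it in *Gzmf*, where 14.0% of 32851 RefSeq promoters of this length hold at least 1 (both strands searched). Over aligned bases, the 10 pairs among these genes, without *Gzmb*, were 71.5% (*Gzmc* and *Gzmf*) to 94.8% (*Gzmd* and *Gzme*) identical, against 46.8% to 50.4% for each of the 5 with *Gzma*. The windows of *Gzmc* to *Gzmg* are therefore related sequences and not independent matches, and a match is not a site. The *Gzma* window held 1 Runx core and 1 interferon-stimulated response element core, which 2.98% of promoters hold. The *Prf1* window held 1 Runx core and is shown on the plus strand for comparison.
Prf1, chr10:61297586-61297835: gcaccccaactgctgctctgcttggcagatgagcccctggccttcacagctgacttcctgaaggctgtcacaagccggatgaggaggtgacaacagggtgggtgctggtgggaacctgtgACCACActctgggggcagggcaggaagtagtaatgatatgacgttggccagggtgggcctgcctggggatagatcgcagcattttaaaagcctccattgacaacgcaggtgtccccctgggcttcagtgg

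*Gzma* was at 40.8, 18.7, 25.5 and 30.1 FPKM in the tumors of mice 41, 43, 44, and 45, and at 0, 0, 0, 0.0707 and 0 FPKM in NSG mice 1 to 5. The lowest Balb/c tumor was far above the only NSG tumor with a value above 0, and the difference was 4.82 (standard error 0.19, adjusted p = 2.57e-07 in limma). *Gzmb*, the granzyme best known for activating caspases, was at 40.3, 18.8, 39.7 and 19.5 FPKM in Balb/c and 0.243, 0.0379, 0, 0.0819 and 0.128 FPKM in NSG tumors, a difference of 4.72 (standard error 0.24, adjusted p = 1.38e-06 in limma). Within Balb/c mice it fell into a higher pair, mice 41 and 44, and a lower pair, mice 43 and 45.

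*Gzmf*, with the largest difference of all genes, was at 201, 28.6, 178 and 107 FPKM in Balb/c tumors and at 0, 0, 0, 0.0643 and 0 FPKM in NSG tumors (difference 6.68, standard error 0.46, adjusted p = 1.3e-05 in limma). *Gzmg* reached 149, 17.8, 106 and 69.3 FPKM in Balb/c mice and was listed at 0 in all 5 NSG tumors. Its Balb/c mean was thus at least 321-fold higher, against a floor of 3 fragments per tumor at the estimated depth. Here and below, such folds set a group mean against the highest floor of the other group, and single tumors can lie lower. *Gzmc*, *Gzmd*, and *Gzme* differed by 5.76, 6.18, and 4.88 (adjusted p = 1.29e-05, 2.53e-05, and 0.000137 in limma). In each of these 5 genes mouse 41 was highest, mouse 44 next, and mouse 43 lowest, and no Balb/c tumor reached the range of the NSG tumors. Summed over *Gzmd*, *Gzme*, *Gzmf*, and *Gzmg*, the level was 578, 76.7, 475 and 265 FPKM in the Balb/c tumors, and 0.190 FPKM in the highest NSG tumor. As for sequence shared between copies, 6.83% of the windows of *Gzmg* and 0 of those of *Gzmf* occur in another gene. These values do not cover *Gzmc*, *Gzmd*, and *Gzme*. The spread among the 4 Balb/c tumors was wider for the cluster than for *Prf1*, at 26.4, 14.9, 22.03 and 15.7 FPKM, or for *Nkg7*, a membrane protein of cytotoxic granules, at 21.3, 22.7, 22.1 and 14.0 FPKM. Slopes of the libraries along transcript length, a sign of RNA quality, were 0.00, 0.15, −0.10, and 0.19 log2 units per doubling in mice 41, 43, 44, and 45, so that the lower pair were those with the positive slopes; the part of this in the order of the Balb/c tumors was not tested.

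The perforin gene *Prf1* was at 0, 0.0268, 0.0214, 0.0585 and 0.0307 FPKM in the NSG tumors and differed by 4.30 (standard error 0.16, adjusted p = 2.57e-07 in limma), and *Nkg7* differed by 4.32 (standard error 0.15, adjusted p = 2.57e-07 in limma). Neither gene had any overlap between hosts. Of the 24 NK and cytotoxic effector genes tested, 18 were called higher and 0 lower, and 23 did not overlap between hosts; the median difference was 1.82. Mean log2 (FPKM + 1) over the list was 2.24 to 2.90 in Balb/c and 0.38 to 0.45 in NSG tumors. Without mouse 45, 19 were called.

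Among NK receptors, *Ncr1*, which encodes the activating receptor NKp46, was at 6.79, 6.08, 6.47 and 4.71 FPKM in Balb/c tumors and listed at 0 in all NSG tumors (difference 2.80, standard error 0.11, adjusted p = 2.57e-07 in limma; at least 39.2-fold higher). *Klrd1*, which encodes CD94, the partner chain of NKG2 receptors, was at 7.09, 7.86, 13.6 and 5.21 FPKM in Balb/c and 0.365, 0.297, 0.0804, 0.315 and 0.328 FPKM in NSG tumors, a difference of 2.82 (standard error 0.21, adjusted p = 2.26e-05 in limma). *Klrk1*, which encodes the activating receptor NKG2D, had a smaller difference of 1.15 (standard error 0.22, adjusted p = 0.0179 in limma), with 3.07 to 7.01 FPKM in Balb/c and 0.76 to 1.82 FPKM in NSG tumors, and was not called without Balb/c mouse 43 or 44 or NSG mouse 2 (difference 0.96 to 1.12, adjusted p = 0.0219 to 0.0644 in limma). *Klrd1* and *Klrk1* lie on chromosome 6, where 7 of 14 killer cell lectin-like receptors other than *Klra* genes were called higher and 0 lower; of the 783 genes tested on that chromosome, 22 were called higher and 14 lower (4.6%). *Eomes*, which encodes a T-box factor of NK and memory CD8+ T cells, differed by 1.40 and *Fasl*, the death ligand, by 1.39. *Tbx21* (0.87) and *Ifng* (0.90) had adjusted p values of 8.16e-05 and 0.000441 in limma, but stayed under the 2-fold limit at means of 0.849 and 0.879 FPKM in Balb/c tumors. *Ifng* was at 0.619, 1.31, 0.792 and 0.794 FPKM there and listed at 0 in each NSG tumor. *Ccl5* was the one member of the list below 0, at 30.0 to 116 FPKM in Balb/c and 71.2 to 123 FPKM in NSG tumors (difference −0.86, standard error 0.34, adjusted p = 0.206 in limma).

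**Figure D2:**
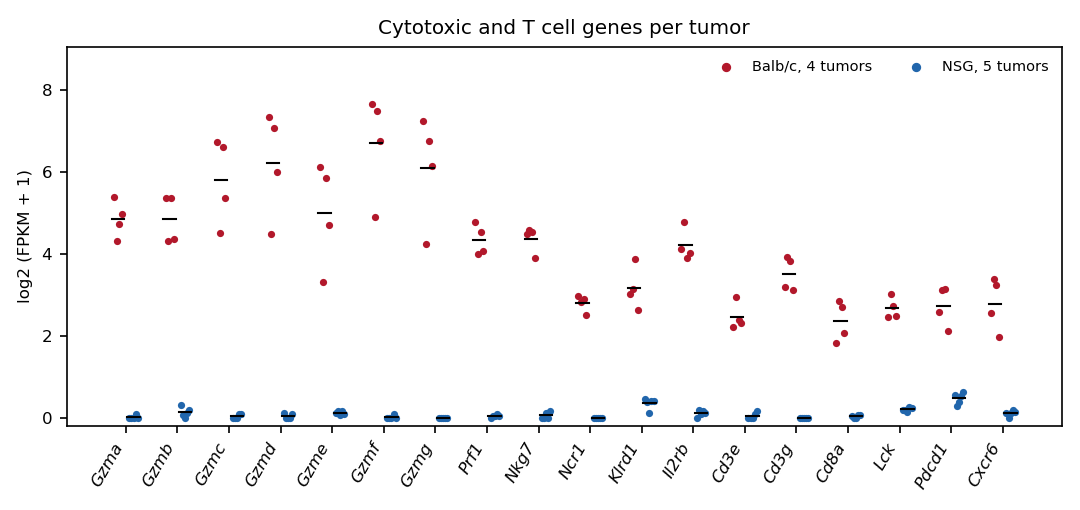
Each point is the log2 (FPKM + 1) of 1 tumor, red for the 4 Balb/c and blue for the 5 NSG tumors, and black bars are group means. For all 18 genes the Balb/c tumors lay above the NSG tumors, and *Gzmc* to *Gzmg* spread more widely among Balb/c tumors than *Prf1* or *Nkg7*.

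T cell genes were also higher in Balb/c tumors. Of 25 genes of the T cell receptor complex and its coreceptors, 15 were called higher and 0 lower, with a median difference of 1.31 and 21 genes without overlap. *Cd3g*, a signaling chain of the T cell receptor, was at 8.14, 14.1, 13.2 and 7.69 FPKM in Balb/c tumors and listed at 0 in all NSG tumors (difference 3.51, standard error 0.17, adjusted p = 1.13e-06 in limma; at least 46.6-fold higher). *Cd3e* was at 3.61, 6.70, 4.25 and 3.97 FPKM in Balb/c and 0, 0, 0, 0.0531 and 0.112 FPKM in NSG tumors, a difference of 2.42 (standard error 0.14, adjusted p = 4.83e-06 in limma). For both chains mouse 43 was the highest.

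*Cd8a*, a chain of the coreceptor of cytotoxic T cells, was at 2.53, 6.16, 5.44 and 3.16 FPKM in Balb/c and 0.0231, 0, 0, 0.039 and 0.0406 FPKM in NSG tumors (difference 2.32, standard error 0.19, adjusted p = 4.71e-05 in limma), with mice 43 and 44 above mice 41 and 45. *Cd8b1*, which encodes its other chain, differed by 2.12 (standard error 0.22, adjusted p = 0.000229 in limma). *Cd4*, the coreceptor of helper T cells, which is also found on some myeloid cells, was at 4.12, 6.15, 3.82 and 3.68 FPKM in Balb/c and 4.20, 1.00, 1.19, 5.58 and 5.62 FPKM in NSG tumors. The hosts overlapped for *Cd4*, and *Cd4* was not called (0.43, standard error 0.38, adjusted p = 0.522 in limma). *Lck*, the kinase that starts T cell receptor signaling, differed by 2.46, *Zap70*, its downstream kinase, by 1.79, and *Thy1* by 1.89 (adjusted p = 1.38e-06, 4.96e-06, and 2.26e-05 in limma). *Thy1*, which stromal cells also express, was at 2.34 to 3.85 FPKM in NSG tumors. *Tcf7*, *Bcl11b*, *Cd4*, *Trat1*, and *Sit1* had an adjusted p above 0.05.

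Checkpoint genes were partly higher. Of 20 checkpoint and regulatory T cell genes tested, 8 were called higher and 0 lower (median 0.87; 7 without mouse 45). *Pdcd1*, which encodes PD-1, the inhibitory receptor of activated T cells, was at 4.97, 7.66, 7.73 and 3.33 FPKM in Balb/c tumors and 0.457, 0.225, 0.302, 0.441 and 0.547 FPKM in NSG tumors (difference 2.26, standard error 0.20, adjusted p = 7.93e-05 in limma). *Ctla4*, which competes with CD28 for its ligands, was at 1.51, 2.05, 1.44 and 2.87 FPKM in Balb/c and 0, 0, 0.0269, 0 and 0.0379 FPKM in NSG tumors (difference 1.53, standard error 0.13, adjusted p = 6.06e-05 in limma). Hosts did not overlap for either receptor, and *Lag3* and *Tnfrsf18* (GITR) differed by 1.34 and 2.01 (adjusted p = 0.0015 and 8.13e-06 in limma). *Tigit*, *Cd96*, *Cd27*, and *Tox* were the other called members, between 1.05 and 1.26. *Tigit* kept its call only when NSG mouse 4 was the tumor left out, and with any other left out its difference was 0.89 to 1.17 (adjusted p = 0.0345 to 0.108 in limma), while *Cd27* (0.91) and *Tox* (0.88) fell under the 2-fold limit without mouse 43. *Cd274*, which encodes the PD-1 ligand PD-L1, overlapped between hosts, with 15.0 to 26.3 FPKM in Balb/c and 15.4 to 27.1 FPKM in NSG tumors (difference −0.11, standard error 0.18, adjusted p = 0.747 in limma), and *Havcr2*, which macrophages also express, differed by −0.26 (adjusted p = 0.559 in limma).

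Among cytokine receptors that pair with the product of *Il2rg*, *Il2rb*, the beta chain for interleukins 2 and 15, was at 16.4, 26.2, 14.0 and 15.2 FPKM in Balb/c and 0, 0.146, 0.0684, 0.117 and 0.0741 FPKM in NSG tumors (difference 4.09, standard error 0.17, adjusted p = 3.44e-07 in limma). The highest Balb/c tumor was mouse 43 and no NSG tumor exceeded 0.146 FPKM. *Il2rb* was the only called gene of 17 common gamma chain cytokines, receptors, and signaling genes (median 0.19). *Il15* and *Il7*, the cytokines themselves, differed by −0.47 and −0.32 (adjusted p = 0.283 and 0.243 in limma). Of 8 Gimap genes, GTPases of lymphocyte survival that lie within 124 kb on chromosome 6, 5 were called higher and 0 lower, with *Gimap7* listed at 0 in all NSG tumors and at 3.03, 5.73, 4.95 and 2.64 FPKM in Balb/c tumors (difference 2.30, standard error 0.17, adjusted p = 2.26e-05 in limma).

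Of 14 B cell and plasma cell genes tested, 1 was called higher and 0 lower (7.14% called, against 1.41% of all genes). The list median was 0.02, and *Blk*, *Cr2*, and *Fcer2a* were below the filter. The called gene was *Jchain*, which joins polymeric antibodies in plasma cells, at 2.65, 13.8, 4.01 and 5.29 FPKM in Balb/c and 0.0716, 0, 0.0694, 0 and 0.0309 FPKM in NSG tumors (difference 2.64, standard error 0.32, adjusted p = 0.000858 in limma). Mouse 43 was far above the other Balb/c tumors. *Ms4a1*, which encodes CD20, did not overlap between hosts, but its 0.199 to 0.522 FPKM in Balb/c tumors left the difference at 0.40 (standard error 0.08, adjusted p = 0.0204 in limma). *Cd79a*, a chain of the B cell receptor, was at 0.644 and 0.63 FPKM on average.

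Few interferon-gamma response genes were called in control tumors. Of 34 tested, 1 was called higher and 0 lower (2.94% called, against 1.41% of all genes). The median was 0.15, with 24 genes above 0 and 10 below. List means overlapped, at 4.38 to 4.85 in Balb/c and 4.30 to 4.75 in NSG tumors. In the *Atrx* knock-down tumors, 6 of the 34 were called higher and 0 lower (1.38% of all genes were called there), with a median of 0.63. *Cxcl9*, a chemokine that attracts activated T cells, was at 7.38, 13.5, 12.4 and 13.4 FPKM in Balb/c tumors and 2.54, 2.54, 1.88, 2.39 and 2.07 FPKM in NSG tumors (difference 1.92, standard error 0.17, adjusted p = 9.33e-05 in limma). All Balb/c tumors lay above all NSG tumors, with mouse 41 the lowest Balb/c tumor. *Cxcl10* and *Cxcl11*, which bind the same receptor, had values of −0.77 and −1.05 (adjusted p = 0.134 and 0.16 in limma), and *Irf1*, a transcription factor of the response, differed by 0.24 (adjusted p = 0.28). Because *Cxcl9* and *H2-Eb1* are the called members with the largest differences in the interferon-gamma and MHC class II lists, their promoter windows are shown with the Y box core (CCAAT, or ATTGG on the other strand) and the Runx core in capitals.
Cxcl9, chr5:92328080-92328329, minus strand: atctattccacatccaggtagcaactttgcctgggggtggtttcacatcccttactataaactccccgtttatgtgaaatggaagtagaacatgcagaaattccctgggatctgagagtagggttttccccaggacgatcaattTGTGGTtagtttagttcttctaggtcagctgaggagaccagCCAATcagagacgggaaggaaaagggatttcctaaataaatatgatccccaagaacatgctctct
H2-Eb1, chr17:34305617-34305866, plus strand: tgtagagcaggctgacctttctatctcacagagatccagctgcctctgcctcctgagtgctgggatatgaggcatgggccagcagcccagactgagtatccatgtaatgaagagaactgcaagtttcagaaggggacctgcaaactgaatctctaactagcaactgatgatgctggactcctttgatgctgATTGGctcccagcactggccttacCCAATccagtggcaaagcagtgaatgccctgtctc

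The *Cxcl9* window held 1 Y box core and 1 Runx core, and the *H2-Eb1* window 2 Y box cores, where 33.8% of promoters hold at least 1 Y box core. Neither window held the letters of the gamma-activated site core (TTCNNNGAA, 7.02% of promoters) or of the interferon-stimulated response element core (2.98%), both of which were searched on both strands. Windows of this length leave out more distant elements, and elements within them that are spelled in other letters were not searched.

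MHC class II molecules present peptides to CD4+ T cells. Of 14 class II presentation genes, 2 were called higher and 0 lower (median 0.75). *H2-Eb1*, a beta chain, was at 67.4, 144, 58.2 and 135 FPKM in Balb/c and 30.3, 17.3, 20.5, 48.9 and 35.9 FPKM in NSG tumors (difference 1.68, standard error 0.35, adjusted p = 0.0271 in limma). *Cd74*, the invariant chain, was at 266, 493, 202 and 529 FPKM in Balb/c and 132, 93.9, 116, 191 and 168 FPKM in NSG tumors (difference 1.33, standard error 0.31, adjusted p = 0.045 in limma). For both genes mice 43 and 45 were well above mice 41 and 44, the reverse of the order for *Gzmb*. *H2-Eb1* was not called without Balb/c mouse 43 or 45 or NSG mouse 1 or 2 (difference 1.47 to 1.70, adjusted p = 0.0602 to 0.0965 in limma). *Cd74* kept its call only when Balb/c mouse 44 was the tumor left out, and with any other left out its difference was 1.13 to 1.46 (adjusted p = 0.054 to 0.152 in limma). *H2-Aa* and *H2-Ab1* had values of 1.23 and 1.16 (adjusted p = 0.123 and 0.139 in limma) and overlapped between hosts. *Ciita*, the master regulator of class II genes, was at 3.22 and 1.06 FPKM on average (adjusted p = 0.153).

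MHC class I presentation genes had 0 calls among 30, with 3 at an adjusted p under 0.05 in limma and below 2-fold and a median of 0.21. Without mouse 45, 1 was called higher, *H2-T24* (difference 1.06, adjusted p = 0.00171 in limma). *B2m*, the light chain of class I molecules, was at 902 to 1426 FPKM in Balb/c and 1253 to 1462 FPKM in NSG tumors, and *H2-D1*, a heavy chain, at 681 to 892 and 724 to 941 FPKM. The hosts overlapped for both. Class I genes are polymorphic between the strains, and a part of such alleles in the values was not tested.

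Type I interferon-stimulated genes leaned the other way. Of 32 tested, 0 were called higher and 1 lower, 29 were below 0, and the median was −0.50, against 0.01 for all genes. List means were 4.89, 4.58, 5.45 and 4.10 in mice 41, 43, 44, and 45 and 5.06 to 5.57 in NSG tumors, so that mouse 44 lay within the NSG range. Without mouse 45 the median was −0.31 and 0 were called lower. The Balb/c tumors ran from highest to lowest in the order of their length slopes from lowest to highest, and the part of RNA quality in this was not tested. *Ifit3*, which binds other antiviral IFIT proteins, was at 26.6, 19.1, 50.5 and 17.0 FPKM in Balb/c and 59.4, 82.8, 49.7, 57.7 and 62.7 FPKM in NSG tumors (difference −1.22, standard error 0.28, adjusted p = 0.0423 in limma); 41.1% of its windows occur in another gene, mainly *Ifit3b*. Its call was lost without Balb/c mouse 41, 43, or 45 or NSG mouse 1, 2, 4, or 5 (difference −1.25 to −1.03, adjusted p = 0.0868 to 0.149 in limma). *Isg15*, a ubiquitin-like protein, and *Irf7*, the factor that amplifies the response, had values of −0.93 and −0.62 (adjusted p = 0.242 and 0.312 in limma). *Bst2*, or tetherin, was at 86.0 to 218 FPKM in Balb/c and 157 to 305 FPKM in NSG tumors (adjusted p = 0.134 in limma), and was called without Balb/c mouse 44 (difference −1.05, adjusted p = 0.0387) and without NSG mouse 3 (−1.003, adjusted p = 0.0439). *Ifi44l*, which was not in the list, went against it, at 26.0, 19.6, 40.7 and 13.6 FPKM in Balb/c and 0.519, 1.64, 1.02, 0.747 and 1.22 FPKM in NSG tumors (difference 3.60, standard error 0.28, adjusted p = 2.9e-05 in limma), while its neighbor in name *Ifi44* differed by 0.06 (adjusted p = 0.921).

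**Figure D3:**
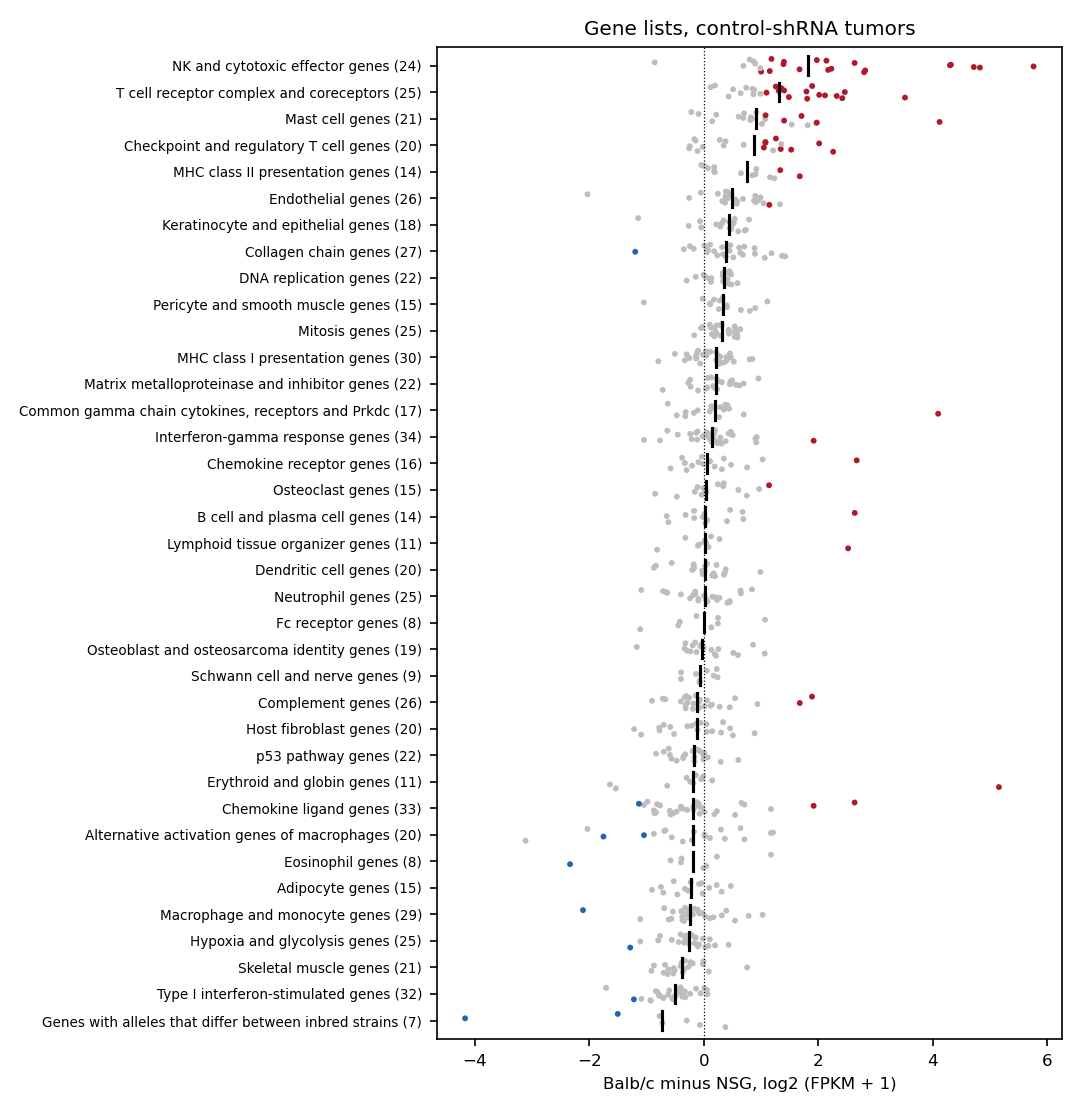
Each row is a gene list with the number of members tested, each point a member's Balb/c minus NSG difference in log2 (FPKM + 1), red or blue where called, and black bars are list medians. Lists of cytotoxic, T cell, mast cell, and checkpoint genes lie furthest to the right, with medians of 1.82, 1.31, 0.92, and 0.87, and the dotted line is the median of all genes.

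Of 33 chemokine ligand genes, 2 were called higher (*Xcl1* and *Cxcl9*) and 1 lower (*Cxcl14*), with a median of −0.19. *Xcl1*, which lymphocytes release to attract cross-presenting dendritic cells, was at 6.09, 5.89, 9.57 and 2.62 FPKM in Balb/c and 0, 0.153, 0, 0.157 and 0 FPKM in NSG tumors (difference 2.63, standard error 0.25, adjusted p = 0.000114 in limma). *Cxcl14* was at 4.92 to 10.6 FPKM in Balb/c and 9.47 to 23.7 FPKM in NSG tumors (difference −1.13, standard error 0.26, adjusted p = 0.0421 in limma), with overlap, and lost the call without Balb/c mouse 41, 43, or 45 or NSG mouse 1, 2, 3, or 4 (difference −1.16 to −0.98, adjusted p = 0.0506 to 0.115 in limma). Among 16 chemokine receptors, *Cxcr6*, found on tissue-resident T and NK cells, was the 1 called gene (2.67, standard error 0.25, adjusted p = 0.000104 in limma; median of the list 0.05). Of 11 lymphoid tissue organizer genes, *Ltb*, lymphotoxin beta, was the 1 called gene, at 7.09, 12.3, 7.14 and 7.29 FPKM in Balb/c and 0.787, 0.712, 0.289, 0.535 and 0.777 FPKM in NSG tumors (difference 2.52, standard error 0.17, adjusted p = 1.3e-05 in limma; median of the list 0.02).

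Mast cells store proteases and histamine in granules. Of 21 mast cell genes, 5 were called higher and 0 lower, 13 did not overlap, and the median was 0.92. *Tpsab1*, which encodes a tryptase, was at 116, 76.5, 43.8 and 57.3 FPKM in Balb/c and 1.39, 2.75, 2.86, 3.77 and 5.31 FPKM in NSG tumors (difference 4.12, standard error 0.31, adjusted p = 2.44e-05 in limma). *Tpsb2*, which encodes the other tryptase, was at 93.2, 59.7, 38.2 and 36.0 FPKM in Balb/c and 12.5, 5.66, 7.30, 21.4 and 27.6 FPKM in NSG tumors (difference 1.97, standard error 0.44, adjusted p = 0.0387 in limma). Mouse 41 was highest for both tryptases, and for *Tpsb2* NSG mice 4 and 5 came closest to the Balb/c tumors. *Tpsb2* was not called without Balb/c mouse 41, 43, or 45 or NSG mouse 1 or 2 (difference 1.70 to 2.15, adjusted p = 0.0562 to 0.124 in limma). *Kit*, the stem cell factor receptor, and the Mas-related receptor genes *Mrgprb1* and *Mrgprb2* differed by 1.40, 1.71, and 1.08 (adjusted p = 0.00335, 0.00551, and 0.0336 in limma). *Mrgprb2* was not called without Balb/c mouse 41 or 43 or NSG mouse 1, 2, or 4 (difference 0.86 to 1.12, adjusted p = 0.0615 to 0.116 in limma). The proteases *Mcpt4*, *Cpa3*, and *Cma1* had values of 1.96, 1.81, and 1.54 that were not called (adjusted p = 0.0797, 0.068, and 0.145 in limma). In the *Atrx* knock-down tumors, which share no tumor with these, 1 mast cell gene was called and the median was 0.06. Some other list medians also changed there, such as DNA replication (−0.11, against 0.35) and macrophage genes (0.22, against −0.24). That of T cell genes was alike (1.34, against 1.31). The test of the interaction of host and shRNA, given below, called 0 genes.

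Macrophage genes differed little as a group. Of 29 macrophage and monocyte genes, 0 were called higher and 1 lower (3.45% called, against 1.41% of all genes). The median was −0.24 (−0.13 without mouse 45). List means overlapped, at 5.89 to 6.49 in Balb/c and 6.14 to 6.65 in NSG tumors. *Adgre1* (F4/80) was at 45.6 to 70.1 and 62.3 to 118 FPKM in Balb/c and NSG tumors, *Cd68* at 127 to 220.3 and 183 to 276 FPKM, and neither was called. The called gene, *Gpnmb*, a glycoprotein of lysosomal stress, was at 8.27, 5.96, 9.07 and 6.88 FPKM in Balb/c and 18.7, 49.6, 77.9, 27.1 and 28.5 FPKM in NSG tumors (difference −2.11, standard error 0.35, adjusted p = 0.00696 in limma). NSG mice 2 and 3 were the highest. These tumors were also the highest for skeletal muscle genes, with a mean log2 (FPKM + 1) of 2.70 and 4.22 against 0.82 to 1.49 in the other NSG tumors, and for adipocyte genes, with 2.51 and 2.48 against 1.84 to 2.06; the part of other tissue in the values of *Gpnmb*, and of *Marco* and *Chil3* below, was not tested.

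*Marco*, a scavenger receptor of macrophages that was not in the list, reached 1.88, 15.3, 9.68, 3.07 and 4.58 FPKM in the 5 NSG tumors and was 0 in 3 of 4 Balb/c tumors (difference −2.67, standard error 0.43, adjusted p = 0.00608 in limma), again with NSG mice 2 and 3 on top. Of 20 genes of alternative activation, 0 were called higher and 2 lower (median −0.19). *Cd209f*, a lectin related to DC-SIGN, was at 1.05 to 2.55 FPKM in Balb/c and 5.19 to 12.4 FPKM in NSG tumors (difference −1.75, standard error 0.23, adjusted p = 0.00161 in limma; 23.4% of its windows are shared, mainly with *Cd209g*), and *Clec4a2*, an inhibitory lectin receptor, differed by −1.05 (standard error 0.15, adjusted p = 0.00303 in limma), a call lost without Balb/c mouse 43 or 45 or NSG mouse 4 (difference −0.996 to −0.962, within the 2-fold limit). *Arg1*, arginase 1, was at 141 to 359.9 and 192 to 417 FPKM and overlapped between hosts. *Chil3*, a chitinase-like protein, was at 2.44, 52.8, 53.8, 5.15 and 3.36 FPKM in NSG tumors and at most 0.658 FPKM in Balb/c tumors, but with this spread the gene was not called (−3.12, standard error 0.83, adjusted p = 0.0775 in limma).

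Neutrophil genes had 0 calls among 25 (median 0.01; *S100a8* at 39.7 to 168 and 38.2 to 92.3 FPKM, and *S100a9* at 41.7 to 165 and 33.4 to 95.8 FPKM). Dendritic cell genes had 0 among 20 (median 0.02; *Fscn1* at 92.1 to 176 and 66.5 to 128 FPKM), and Fc receptor genes 0 among 8 (median 0.00; *Fcer1g* at 157 to 334 and 237 to 351 FPKM, and *Fcgr2b* at 216 to 287 and 188 to 240.2 FPKM). Of 8 eosinophil genes, 1 was called lower: *Ear1*, a secreted ribonuclease, at 0 to 0.421 FPKM in Balb/c and 2.54 to 7.93 FPKM in NSG tumors (difference −2.34, standard error 0.27, adjusted p = 0.000607 in limma), with 39.3% of its windows shared with other genes of the family; the list median was −0.20. Of 26 complement genes, 2 were called higher and 0 lower (median −0.12). *Cd55*, which shields cells from complement, was at 8.02, 5.97, 6.41 and 4.31 FPKM in Balb/c and 0.54, 1.26, 1.22, 0.68 and 0.929 FPKM in NSG tumors (difference 1.89, standard error 0.17, adjusted p = 0.000104 in limma), and *C6*, a part of the membrane attack complex, differed by 1.68 (standard error 0.18, adjusted p = 0.000327 in limma), with mouse 43 the highest at 7.78 FPKM.

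The *Klra* genes (Ly49 receptors), which sense MHC class I on NK cells and differ in number and sequence between mouse strains, split by member. Of 13 tested in a 1416 kb stretch of chromosome 6, 6 were lower and 1 higher in Balb/c tumors (median −0.72, 5 lower without mouse 45; the family was put together after its values were seen). *Klra8* (chr6:130115226-130129898, minus strand), the receptor Ly49H, was listed at 0 in all Balb/c tumors and at 17.98, 13.3, 12.2, 25.8 and 18.9 FPKM in NSG tumors (difference −4.17, standard error 0.19, adjusted p = 8.26e-07 in limma; at least 115-fold lower). *Klra9*, *Klra10*, and the pseudogene *Klra14-ps* differed by −3.30, −2.94, and −2.28 (adjusted p = 4.83e-06, 1.25e-05, and 7.41e-05 in limma). In each of these 4, NSG mouse 4 had the highest value.

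*Klra2*, an inhibitory receptor also found on macrophages, ran the other way, at 11.1, 9.05, 22.3 and 7.11 FPKM in Balb/c and 4.77, 2.78, 2.56, 5.13 and 3.58 FPKM in NSG tumors (difference 1.41, standard error 0.29, adjusted p = 0.0271 in limma). It was not called without Balb/c mouse 41 or 43 or NSG mouse 2 or 5 (difference 1.33 to 1.503, adjusted p = 0.0557 to 0.074 in limma). Between 12.1% and 19.7% of the windows of *Klra8*, *Klra9*, *Klra10*, and *Klra14-ps* occur in another annotated gene, so that reads may be divided among copies, and the reference genome is of neither host strain. Outside the family, *Ncr1* was listed at 0 in all 5 NSG tumors, and *Klrd1* did not exceed 0.365 FPKM there. Of the 24 NK and cytotoxic effector genes, 23 differed above 0 and 1, *Ccl5*, below 0 (−0.86, not called). The source of the *Klra* values in NSG tumors was not tested. Of 7 tested genes with alleles that differ between inbred strains, 0 were called higher and 2 lower (median −0.72), *Klra8* and *Ly6a*, which encodes Sca-1 and was at 24.8 to 78.1 FPKM in Balb/c and 106 to 218 FPKM in NSG tumors (difference −1.50, standard error 0.32, adjusted p = 0.0329 in limma). *Ly6a* was not called without Balb/c mouse 41 or 43 or NSG mouse 1, 2, 4, or 5 (difference −1.62 to −1.39, adjusted p = 0.0585 to 0.0839 in limma).

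**Figure D4:**
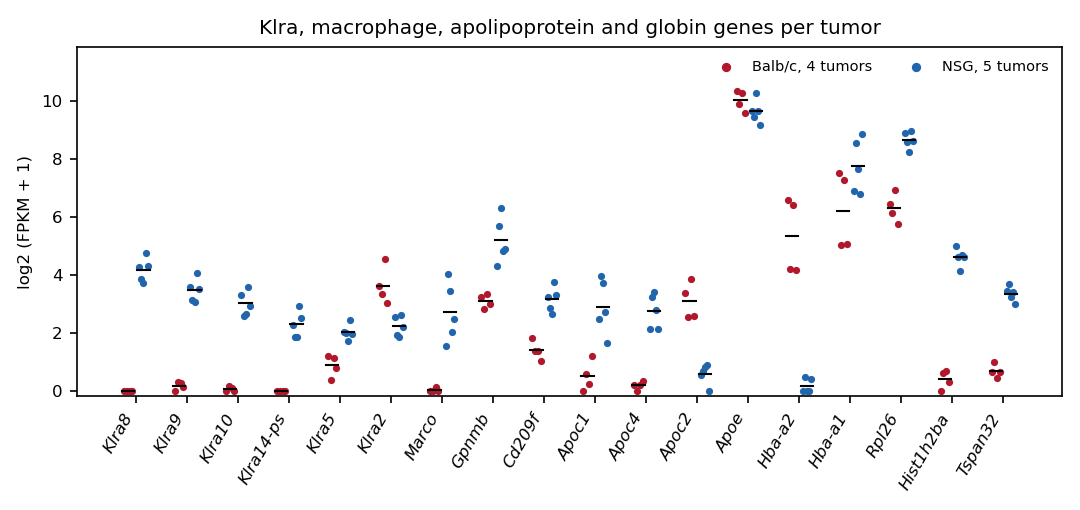
Each point is the log2 (FPKM + 1) of a single tumor, given on the y axis for each gene, red for Balb/c and blue for NSG, and black bars are group means. *Klra8* and *Klra14-ps* are at 0 in all Balb/c tumors, *Apoc2* and *Apoc4* differ in opposite directions, and *Hba-a2* is high in Balb/c tumors where *Hba-a1* overlaps between hosts.

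Apolipoprotein genes in 1 cluster on chromosome 7 moved in opposite directions. *Apoc4* was at 0.132, 0, 0.151 and 0.263 FPKM in Balb/c and 3.39, 8.47, 9.43, 5.83 and 3.33 FPKM in NSG tumors (difference −2.55, standard error 0.27, adjusted p = 0.000257 in limma), and *Apoc1* differed by −2.40 (standard error 0.44, adjusted p = 0.0136 in limma). *Apoc2*, the activator of lipoprotein lipase, was at 9.39, 4.82, 13.5 and 4.93 FPKM in Balb/c and 0.452, 0.595, 0.776, 0.825 and 0 FPKM in NSG tumors (difference 2.50, standard error 0.29, adjusted p = 0.000531 in limma). However, 87.7% of the windows of *Apoc2* occur in overlapping transcripts, and the sum of *Apoc2*, *Apoc4*, and the read-through gene *Apoc4-apoc2* overlapped, at 10.3, 5.54, 14.2 and 5.20 FPKM in Balb/c and 3.84, 9.07, 10.2, 6.66 and 3.33 FPKM in NSG tumors. *Apoe*, at 766 to 1288 and 569 to 1227 FPKM, was not called (0.39, standard error 0.25, adjusted p = 0.4 in limma).

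The alpha globins were similar in this respect. *Hba-a2* was called higher in Balb/c tumors (5.16, standard error 0.50, adjusted p = 0.00014 in limma), at 93.5, 17.5, 83.6 and 16.7 FPKM against 0, 0.386, 0, 0 and 0.316 FPKM, but 81.0% of its windows occur in *Hba-a1*, which had a difference of −1.54 (standard error 0.63, adjusted p = 0.219 in limma). Summed, both were at 272, 48.5, 238 and 49.1 FPKM in Balb/c and 118, 372, 200.5, 109.7 and 456 FPKM in NSG tumors, with overlap. The sum thus overlapped between hosts where *Hba-a2* alone did not. *Hba-a2* was the 1 called gene of 11 erythroid and globin genes (median −0.18).

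Several other genes were close to absent in Balb/c tumors and expressed in every NSG tumor. *Tspan32*, a tetraspanin of blood cells, was at 0.556, 0.969, 0.348 and 0.562 FPKM in Balb/c and 9.82, 11.7, 8.31, 9.65 and 6.84 FPKM in NSG tumors (difference −2.67, standard error 0.16, adjusted p = 5.56e-06 in limma). *Hist1h2ba*, a histone H2B variant gene, was at 0 to 0.605 and 16.2 to 30.4 FPKM (difference −4.20, standard error 0.20, adjusted p = 8.26e-07 in limma; 33.2% of windows shared), and *Gm8615* differed by −3.22 (standard error 0.14, adjusted p = 5.03e-07 in limma) with 44.8% shared. No shared windows were found for *BC018473*, listed at 0 in all Balb/c tumors and at 7.31 to 24.9 FPKM in NSG tumors (difference −3.78, standard error 0.31, adjusted p = 4.86e-05 in limma).

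*2610305D13Rik* differed by −2.62 (standard error 0.14, adjusted p = 2.01e-06 in limma). *Mir8094*, a gene of 117 nt, was listed at 0 in all Balb/c tumors and at 16.4, 12.9, 13.7, 14.1 and 51.7 FPKM in NSG tumors, but FPKM of a gene shorter than a fragment is not reliable, and 41.9% of its windows occur in *Ddx39b*. *Rpl26*, a ribosomal protein gene, was at 85.0, 68.7, 119.6 and 52.1 FPKM in Balb/c and 476, 384, 295, 491 and 393 FPKM in NSG tumors (difference −2.35, standard error 0.24, adjusted p = 0.000185 in limma), with 35.5% of its windows in other genes, mainly the pseudogene *Gm15772*. Among abundant genes, *U90926* and the crystallin gene *Cryaa* were also lower in Balb/c tumors, by −1.72 (standard error 0.37, adjusted p = 0.0346 in limma) and −1.68 (standard error 0.35, adjusted p = 0.0268 in limma). Neither call held with every single tumor left out: *U90926* lost it without Balb/c mouse 43 or NSG mouse 1, 2, or 5 (difference −1.83 to −1.62, adjusted p = 0.051 to 0.106 in limma), and *Cryaa* without Balb/c mouse 41 or NSG mouse 1, 2, 4, or 5 (difference −1.71 to −1.57, adjusted p = 0.0564 to 0.0749 in limma). Higher in Balb/c tumors was *Pla2g2d*, a secreted phospholipase of lymphoid tissue, at 13.5, 27.5, 19.9 and 8.12 FPKM against 0.33, 0.129, 0.44, 0.426 and 0.148 FPKM (3.70, standard error 0.28, adjusted p = 2.26e-05 in limma).

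Lists of tumor cell and stroma genes held 0 or 1 called gene each, where 1.41% of all genes tested were called. In lists this short, 0 or 1 call cannot be told apart from that share. Of 19 osteoblast and osteosarcoma identity genes, 0 were called (median −0.04; *Col1a2* 0.51 and *Atf4* −0.15, not called). Mitosis genes had 0 calls among 25 with 22 above 0 (median 0.31). Of these 25, 7 did not overlap between hosts, all higher in Balb/c tumors, as did 4.8% of all genes. List means met at 5.16, the level of both the lowest Balb/c and the highest NSG tumor. *Top2a*, which untangles chromosomes, was at 116 to 158 FPKM in Balb/c and 80.2 to 112 FPKM in NSG tumors (difference 0.54, standard error 0.14, adjusted p = 0.0758 in limma), and *Ube2c* differed by 0.12. DNA replication genes also had 0 calls among 22 with 19 above 0 (median 0.35, with *Pcna* −0.30 and *Rrm2* 0.01, not called). Of these 22, 4 did not overlap, all higher in Balb/c tumors. Genes of the p53 pathway had 0 among 22 (median −0.16; *Rps27l* −0.61 and *Plk2* −0.20, not called).

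Of 25 hypoxia and glycolysis genes, 0 were called higher and 1 lower (median −0.26). *Car9*, carbonic anhydrase 9, a surface enzyme induced by hypoxia, was at 15.0, 8.53, 22.9 and 20.2 FPKM in Balb/c and 43.9, 40.3, 26.3, 35.5 and 59.3 FPKM in NSG tumors (difference −1.29, standard error 0.28, adjusted p = 0.0364 in limma), without overlap. *Pecam1*, the endothelial adhesion molecule CD31, was the 1 called gene of 26 endothelial genes, at 18.7, 24.3, 13.2 and 19.7 FPKM in Balb/c and 7.93, 7.47, 14.3, 5.27 and 6.49 FPKM in NSG tumors (difference 1.14, standard error 0.25, adjusted p = 0.0352 in limma). It overlapped because NSG mouse 3 was above mouse 44, and the list had 23 members above 0 and a median of 0.48. The call was lost for *Car9* without Balb/c mouse 41, 43, or 45 or NSG mouse 1, 2, 4, or 5 (difference −1.40 to −1.02, adjusted p = 0.0534 to 0.0994 in limma). For *Pecam1* it was lost without Balb/c mouse 41, 43, or 45 or NSG mouse 1, 2, 4, or 5 (difference 1.02 to 1.15, adjusted p = 0.0791 to 0.127 in limma).

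Of 27 collagen genes, *Col6a6* was the 1 called, lower by −1.20 (standard error 0.17, adjusted p = 0.00255 in limma) (median of the list 0.38). *Car2*, carbonic anhydrase 2, was the 1 called of 15 osteoclast genes (1.14, standard error 0.20, adjusted p = 0.00905 in limma; median 0.04). No gene was called among 15 pericyte and smooth muscle genes (median 0.33; *Smtn* 0.33, *Acta2* 0.40), 20 fibroblast genes (−0.12; *Cd34* 0.30, *Gsn* −0.21), or 22 matrix metalloproteinase and inhibitor genes (0.20; *Timp2* 0.26, *Mmp12* −0.23). The same held for 15 adipocyte genes (−0.23; *Fabp4* 0.31, *Scd1* −0.23), 21 skeletal muscle genes (−0.39; *Eno3* −0.01, *Acta1* −0.63), and 9 Schwann cell and nerve genes (−0.07; *Pmp22* −0.40, *Ncam1* −0.14). Among 18 keratinocyte genes 0 were called, with a median of 0.45. Without mouse 45 the median was −0.27 and 1 was called lower, *Sbsn* (difference −1.43, adjusted p = 0.00731 in limma). In that tumor *Krt14* was at 43.3 FPKM, against 0.303 to 0.378 FPKM in the other Balb/c tumors.

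The same host difference was then set beside that of the *Atrx* knock-down tumors, 4 Balb/c against 5 NSG tumors with 14202 genes tested, of which 196 were called (1.38%), 161 higher (1.13%) and 35 lower (0.246%). Of the 128 genes higher in control tumors, 103 were also called there, which is 80.5% of the control and 64.0% of the knock-down calls, and 125 had the same sign, with medians of 1.65 and 1.60. Of the 75 lower genes, 22 were also called (29.3% and 62.9%) and 72 had the same sign, with medians of −1.35 and −0.83. *Gzmf*, *Prf1*, *Il2rb*, and *Cd3g* differed by 6.32, 4.55, 4.15, and 3.48 in knock-down tumors, and *Klra8* by −3.20 (adjusted p = 0.000424, 7.19e-07, 2.13e-08, 4.3e-06, and 9e-06 in limma).

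**Figure D5:**
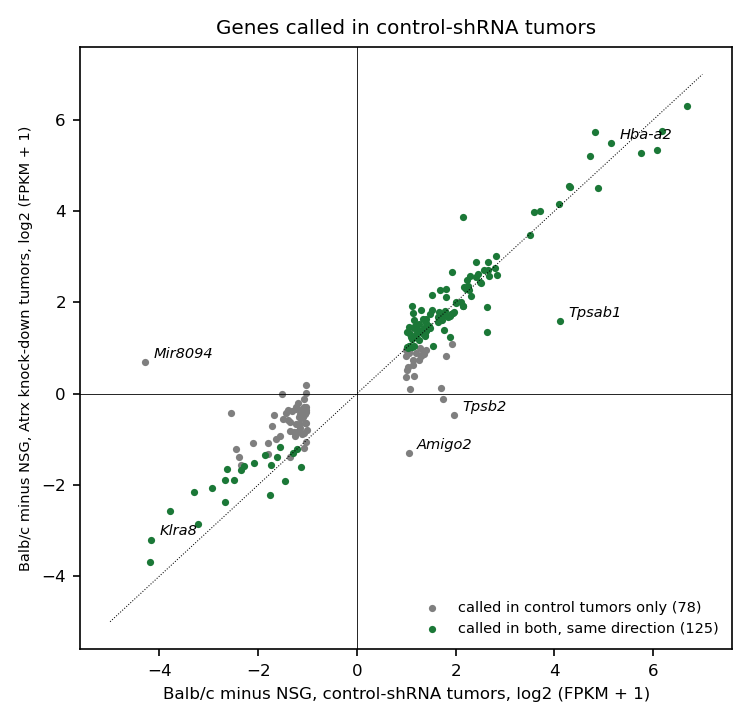
Each point is 1 of the 203 genes called in control-shRNA tumors, with its Balb/c minus NSG difference in log2 (FPKM + 1) in those tumors on the x axis and in *Atrx* knock-down tumors on the y axis; the dotted line marks equal differences. The 125 genes called in both in the same direction are green, and *Tpsb2*, *Mir8094*, and *Amigo2* lie in the quadrants of opposite sign.

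Opposite signs were found for *Amigo2*, *Cd38*, *Clec12a*, *Mir8094*, *Prelp*, and *Tpsb2*, none of which was called in knock-down tumors. In control tumors *Amigo2*, *Cd38*, *Clec12a*, and *Tpsb2* lost the call with at least 1 tumor left out. Their adjusted p then reached 0.162, 0.116, 0.0774, and 0.124 in limma. *Tpsb2* was at 8.87 to 19.3 FPKM in Balb/c and 11.0 to 22.7 FPKM in NSG knock-down tumors (difference −0.47, adjusted p = 0.431 in limma). *Prelp*, a proteoglycan of connective tissue, was at 63.3, 75.2, 45.8 and 54.8 FPKM in Balb/c and 8.56, 14.2, 25.6, 18.6 and 22.7 FPKM in NSG control tumors, without overlap, and differed by −0.13 in knock-down tumors. The test of the difference between the 2 host differences, the interaction of host and shRNA over 14331 genes, called 0 genes in limma, with 1465 at an unadjusted p under 0.05 (10.2%). For *Tpsb2* the interaction was 2.44 (adjusted p = 0.19), for *Tpsab1* 2.53 (adjusted p = 0.162), and for *Apoc4* −2.12 (adjusted p = 0.162 in limma). A p that misses the threshold does not show that the host difference is the same with and without the knock-down.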

How the data were processed

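Stranded, ribosomal RNA-depleted total RNA libraries of tumors, read at 75 bp, were aligned by the authors to the mm10 mouse genome. The submitters' processing notes name STAR 2.6.0c, Cufflinks 2.2.1, and DESeq. The deposited values are a matrix of FPKM on a log2 (FPKM + 1) scale, as the sum of FPKM times length per tumor, close to its expected value with base 2, showed; 92 spike-ins were left out. Groups were read from the labels, and each tumor is a separate mouse. Depth was estimated from the steps of low values, as the depth that brought them closest to whole numbers. At that depth 36.5% to 41.3% of low values lay within 0.1 of a whole number, where 20% would by chance at a depth fixed beforehand. The depth was chosen on the same values, so that the excess over 20% is partly built in. Because whole reads were not recovered, no count test was the main one.

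Balb/c minus NSG differences were fitted with limma 3.58.1 (lmFit, eBayes with a mean trend; R 4.3.3) on log2 (FPKM + 1) of the 9 control-shRNA tumors, with Benjamini-Hochberg adjustment over all 14348 genes and no covariate. The 799 genes on chromosomes X and Y were left out. The *Atrx* knock-down tumors and the interaction were fitted likewise. Values outside the fit were tested with exact permutation tests (scipy 1.17.1). On simulated data for the control-shRNA comparison with 200 genes changed by 2 on the log2 scale, 99.5% were called, with 4 calls among unchanged genes. The changed genes were drawn from those with a mean log2 (FPKM + 1) above 2, with independent normal noise. That share therefore does not cover genes of lower values or trends shared within a library.

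The members, gene lists, and families were chosen with earlier results of these data known. Genes are named where they led the called genes without overlap (10 in each direction), led a list (up to 4 called members, or the 2 most abundant where none was called), or led the abundant called genes (mean of at least 20 FPKM, 5 in each direction); others are named for their role or their values and were chosen after those were seen. The deposited annotation held 24480 genes. To find sequence shared between copies, 75 nt windows of the longest GENCODE transcript of a gene were compared with GENCODE transcripts of other genes. These shares therefore come from another annotation than the one behind the FPKM values. Promoter windows and their background came from RefSeq (GRCm38.p6, that is mm10). The granzyme and *Prf1* windows and the Runx core were added after the values were seen, as were searches for a T-box core (AGGTGTGA, 1.12% of promoters) and an AP-1 core (TGACTCA, 4.46%), which the windows shown did not hold. The *Nkg7* window, searched and not shown, held 1 T-box core, 1 gamma-activated site core, 1 Y box core, and 1 Runx core, which began 14, 220, 63, and 83 bases before the start. Alternatives were another pseudocount, filters, scalings, library weights, a length correction, limma-voom on estimated fragments, a fit of all 4 groups, and leaving out each tumor.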

Additional observations from a re-analysis of the deposited data

Results flagged for a closer look

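Of 252 groups of tumors checked for single distant values, 18 held one, where chance gives about 1 in 20 (12.6); values here are log2 (FPKM + 1). Among Balb/c tumors, mouse 45 was lowest for *Nkg7* (3.9026, others 4.477 to 4.5683) and for *Ly6a* (4.6865, others 6.1356 to 6.306). The same tumor was highest for *Krt14* (5.4699, others 0.3817 to 0.463) and for the mean of the keratinocyte and epithelial list (2.4736, others 0.4572 to 0.4929), and held the only Balb/c value above 0 for the Y-linked gene *Uty* (0.0164). Mouse 43 was highest for *C6* (3.1348, others 2.2312 to 2.3032), for *Ltb* (3.7304, others 3.0156 to 3.0517), and for the mean of the common gamma chain list (3.4028, others 3.2693 to 3.2829). Mouse 41 was lowest for *Cxcl9* (3.0661, others 3.7446 to 3.8557). Mouse 44 held the only Balb/c value above 0 for *Marco* (0.1181) and the lowest mean of the osteoclast list (2.8013, others 3.0771 to 3.1158).

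Among NSG tumors, mouse 4 held the only values above 0 for *Gzma* (0.0986) and *Gzmf* (0.0899). Mouse 5 was highest for *Mir8094* (5.7207, others 3.797 to 4.117) and lowest for *Eif2s3y* (3.567, others 3.8671 to 3.9438). Mouse 3 was lowest for *Bst2* (7.3016, others 7.9925 to 8.2565). Mouse 2 was highest for *Cryaa* (5.3181, others 4.6793 to 4.8216) and for the mean of the interferon-gamma response list (4.7472, others 4.2955 to 4.4238).

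Outside the main measurement, the mean of 4 Y-linked genes was at least 2.6175 in every NSG tumor and 0.00 on average in Balb/c tumors (exact permutation test, two-sided, p = 0.0159, adjusted p = 0.0265 over 10 values). The host difference itself differed between control and knock-down tumors for 2 genes, each only with 1 tumor left out: *Scarna8*, with an interaction of 3.8721 in limma without control Balb/c mouse 43, and *Apoc4*, with −2.3059 without knock-down NSG mouse 26. With all tumors, limma called 0 genes for that interaction.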

How the results depend on the processing

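Against 128 genes called higher and 75 lower in control-shRNA tumors, a pseudocount of 0.1 gave 257 and 142, no fold threshold 304 and 151, and limma-voom on estimated fragments 268 and 144. Leaving out each tumor in turn gave 108 to 170 higher and 45 to 114 lower, with 45 without Balb/c mouse 43, 48 without NSG mouse 4, and 114 without Balb/c mouse 44. In knock-down tumors a pseudocount of 0.1 gave 336 and 74 against 161 and 35, and leaving out each tumor gave 136 to 177 and 23 to 42, with 23 without NSG mouse 30. The interaction called 0 to 1 genes when each tumor was left out. Other settings stayed within 1.5 times of the counts with all tumors, from 100 to 174 higher and 53 to 111 lower in control-shRNA tumors. The causes were not tested. Of 56 called genes picked by the naming rules, 45 were called under every alternative that tested them (up to 20 each). The others, *Car9*, *Cd74*, *Clec4a2*, *Cryaa*, *Cxcl14*, *H2-Eb1*, *Ifit3*, *Ly6a*, *Pecam1*, *Tpsb2*, and *U90926*, lost the call under at least 1. Genes named for their role or their values are outside these counts. Among them *Klrk1*, *Tigit*, *Cd27*, *Tox*, *Klra2*, *Mrgprb2*, *Glb1*, *Rnase2a*, *Amigo2*, *Cd38*, and *Clec12a* lost the call with at least 1 tumor left out. Of 31 genes picked by the naming rules that were not called, 2 gained a call: *Bst2* under 2 alternatives and *Sbsn* under 6. *H2-T24*, outside these counts, gained a call without mouse 45.

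Of the 203 called genes, 0 changed direction under an alternative that tested them. Uncalled genes picked by the naming rules that did so were *Rrm2* (−0.0108 with median-ratio scaling), *B2m* (0.1033 with quantile normalization), *H2-D1* (0.2051 with quantile normalization, 0.0191 with library weights), *Atf4* (0.0992 and 0.0514 with the same settings), and *Eno3* (0.0938 and 0.0011, and 0.0755 with the length trend removed). With library weights *Gsn* (0.0454), *Acta1* (1.0971), *Krt14* (−0.3051), *Pmp22* (0.0229), and *Ncam1* (0.1528) did so too. With each tumor left out, *Rrm2* ranged from −0.0544 to 0.1001, *Eno3* from −0.0790 to 0.0733, *Acta1* from −1.2788 to 0.1704, *Krt14* from −0.5473 to 1.1488, and *Ncam1* from −0.3685 to 0.1605.

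No paired analysis was possible because the groups share no mouse numbers. Strain, immune status, cage, and the Y-linked signal cannot be told apart, and an effect of mapping reads of both strains to a C57BL/6J genome was not tested. Without Balb/c mouse 45 the list medians of dendritic cell (−0.07) and fibroblast genes (0.04) also changed sign, and those of skeletal muscle (−0.23) and complement genes (−0.0026) were nearer 0. Depth was only estimated, so that a value near the floor of 3 fragments is uncertain.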

Other observations

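Some called genes belong to no list and were chosen after their values were seen. *Arsb*, arylsulfatase B, a lysosomal enzyme that degrades sulfated glycosaminoglycans, was at 23.9, 19.3, 16.3 and 28.7 FPKM in Balb/c and 7.12, 10.4, 7.51, 6.46 and 7.97 FPKM in NSG tumors (difference 1.36, standard error 0.18, adjusted p = 0.00147 in limma). *Glb1*, the lysosomal beta-galactosidase, was at 32.0, 26.5, 28.9 and 26.7 FPKM in Balb/c and 13.8, 13.7, 19.1, 11.8 and 11.2 FPKM in NSG tumors (difference 1.00, standard error 0.15, adjusted p = 0.00376 in limma). Neither overlapped between hosts, and *Glb1* fell under the 2-fold limit without Balb/c mouse 41 or 44 or NSG mouse 4 or 5 (difference 0.94 to 0.99, adjusted p = 0.0101 to 0.018 in limma). *Cd200r4*, a member of the CD200 receptor family, was at 9.74, 6.99, 12.2 and 6.65 FPKM in Balb/c and 0.229, 0.549, 0.524, 0.693 and 0.753 FPKM in NSG tumors (difference 2.65, standard error 0.18, adjusted p = 1.25e-05 in limma). *Rnase2a*, a secreted ribonuclease related to *Ear1*, was higher in Balb/c tumors (2.15, standard error 0.50, adjusted p = 0.045 in limma), in the direction opposite to *Ear1*, with overlap because Balb/c mouse 44 (27.7 to 115 FPKM over the Balb/c tumors) lay within the range of the NSG tumors (9.58 to 40.9 FPKM). Its call was lost without Balb/c mouse 41, 43, or 45 or NSG mouse 1, 4, or 5 (difference 1.94 to 2.09, adjusted p = 0.107 to 0.155 in limma).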
